A study of Drosophila melanogaster with 9 samples.

Results

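The accessibility of promoters of nuclear respiratory chain genes was examined by ATAC-Seq in cultured Drosophila melanogaster cells kept at different temperatures. The genes were those of the nuclear chromosomes whose symbol begins with ND-, UQCR-, COX, ATPsyn or Sdh, and a peak was taken as a member when it lay within 500 bp of any annotated transcription start site (TSS) of such a gene. There were 88 such genes, and 58 of them had at least 1 member peak. The members were 68 of 17175 consensus peaks and 68 of 7945 promoter peaks, and the remaining 7877 promoter peaks served for comparison.

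S2R+ is an adherent derivative of an embryonic Drosophila cell line with traits of blood cells (hemocytes). After 36 h at 25 °C the cultures were held at 14, 25 or 29 °C for 24 h, with 3 libraries at each temperature, and the labels name no other treatment. In ATAC-Seq the transposase Tn5 inserts adaptors into accessible DNA, and this reaction was run at 25 °C for all libraries. The numbers of seeded cells differ between the sources, being raised for 14 °C in the study's methods and equal in the deposited labels, so an effect of density cannot be told apart from one of temperature.

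The mitochondrial respiratory chain passes electrons from food to oxygen and stores the energy as a proton gradient. Complex I oxidises NADH, complex II oxidises succinate and is also an enzyme of the tricarboxylic acid (TCA) cycle, complex III passes electrons from ubiquinol to cytochrome c, complex IV reduces oxygen, and complex V, the ATP synthase, makes ATP from the gradient. Most subunits are encoded in the nucleus and have to be made in balance with the few encoded by mitochondrial DNA, which is not covered here. Peak height at a promoter measures how open the DNA is, not how much RNA is made, and in bulk samples open DNA in fewer cells cannot be told apart from less accessible DNA in every cell.

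By complex, the member peaks were 33 for complex I, 4 for complex II, 6 for complex III, 14 for complex IV and 10 for complex V, and 1 peak belonged to Sdhaf3, an assembly factor of complex II. Of the 63 genes for ordinary subunits, 55 had a member peak. Of 24 genes taken as duplicates, those whose symbol ends in L, with or without a number, apart from the subunit gene ND-MNLL, only COX7AL and COX7AL2, 2 genes, had one. Many such genes are copies of a subunit gene that are expressed mainly in the testis of the fly. The 8 ordinary subunit genes without a peak were ND-13A, ND-19, ND-75, ND-B12, ND-B22, ATPsynB, ATPsynO and ATPsyndelta, and for these the nearest peak was between 1111 and 4664 bp from a TSS. For ND-75, the largest iron-sulfur subunit of complex I, it was 2655 bp away. The duplicates without a peak had their nearest peak 615 to 20507 bp away. The member peak farthest from its TSS was COX7AL peak 2, at 469 bp. Of the genes without a member peak, COX7CL had the closest peak, at 615 bp, and that peak is COX7C peak 1, a member through COX7C.

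The sequences under the member peaks were searched for short promoter motifs on both strands. The nuclear respiratory gene element, called the NRG element here, is a near-palindromic motif described in Drosophila genes for mitochondrial proteins and was searched as TTACATAA, TTATGTAA, TTACGTAA or TTATATAA. It was found in 22 of 68 member peaks (32.4%) and in 559 of 7877 other promoter peaks (7.1%). All its forms had higher shares in the members. TTACATAA or its reverse complement TTATGTAA was in 19.1% of member and 3.54% of other promoter peaks, TTACGTAA in 5.88% and 0.686%, and TTATATAA in 10.3% and 3.12%. With peaks of the standard width alone, which are 500 bp from start to end, the shares were 28.3% of 60 and 6.42% of 7293. The element lay mostly downstream of the start: 7 of the 25 matches were upstream of the nearest TSS of the member gene, and the median position was 114.5 bp downstream. Position differed by form: most TTATATAA matches were upstream, and most matches of the other forms were downstream. Windows around the match nearest to the TSS are shown for some named subunits of complexes I, II, III and V, since the element's share differed most between the members and the other promoters. They are from the Release 6 genome (dm6), on the strand of the gene and 5′ to 3′, with the element in capitals.
ATPsyngamma (chr3R:29749055-29749084, minus strand, match 93.5 bp downstream of the TSS): ataattatgagTTACATAAattcaaattaa
ATPsynD (chr3R:19095201-19095230, plus strand, 215.5 bp downstream): attgaaaaaaaTTACATAAtttttgcgagc
ATPsynC peak 2 (chr3R:31218860-31218889, minus strand, 176.5 bp downstream): tgtgcaggaaaTTACATAAttatcggaaaa
UQCR-14 (chrX:16286388-16286417, plus strand, 114.5 bp downstream): gacttctgattTTACGTAAaccatgtcgaa
UQCR-C2 (chr3L:16584496-16584525, plus strand, 237.5 bp downstream): gaaggctcgtgTTACGTAAaacaccccaag
SdhD (chr3R:23760378-23760407, minus strand, 207.5 bp downstream): aacagctttcaTTATATAAccaaaccgttt
ND-42 (chr3R:22027554-22027583, plus strand, -140.5 bp, upstream of the TSS): ttttgtaagtgTTATATAAagtttttaaaa

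The promoters of UQCR-14 and UQCR-C2, which encode a small subunit and a core protein of complex III, thus carried the form TTACGTAA, while the shown ATP synthase promoters carried TTACATAA. The peak of UQCR-Q, also of complex III and not shown, carried TTACATAA. Of the 25 matches in the members, 5 overlapped a match to TATAAA. These were the upstream TTATATAA matches, at ND-30, ND-42, ND-49 peak 1, ND-SGDH and Sdhaf3. Whether they are NRG elements or TATA-like sequences was not tested. The TTATATAA matches of SdhD and COX7AL peak 2 lay 207.5 and 620.5 bp downstream. The remaining upstream matches were TTACATAA, at ND-20 (-0.5 bp) and ND-MNLL (-82.5 bp).

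A pair of housekeeping promoter motifs was also more frequent in the members. Motif 1 (GGTCACAC), bound by the factor M1BP in Drosophila, was in 19 member peaks (27.9%) and in 9.72% of other promoter peaks, and the DNA replication-related element DRE (TATCGATA), bound by DREF, was in 11 (16.2%) and 9.71%. Motif 1 lay within 100 bp of the member TSS in 14 of its 20 matches and DRE in 7 of 11. One named promoter had both, that of COX4, which encodes a nuclear subunit of cytochrome c oxidase, and it is shown with that of COX5B for comparison, the match in capitals.
COX4, DRE (chr2L:19958600-19958629, plus strand, -98.5 bp from the TSS): gcgattgaataTATCGATAtattaatattt
COX4, motif 1 (chr2L:19958640-19958669, plus strand, -58.5 bp from the TSS): attcgagatgtGGTCACACttctctgcatg
COX5B, motif 1 (chr2L:6557801-6557830, plus strand, 15.5 bp downstream of the TSS): tactttaccgcGGTCACACtgatccatagc

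An NRG element, motif 1 or DRE was in 41 of the 68 member peaks, and 7 peaks had both an NRG element and motif 1. Among complexes, the NRG element was in 5 of 10 peaks of complex V, 3 of 6 of complex III, 10 of 33 of complex I, 1 of 4 of complex II and 2 of 14 of complex IV, whereas motif 1 was in 6 of 14 of complex IV. The sequence CCGGAAG, the type bound by ETS factors such as Ets97D, and GCGCATGC, bound by the NRF-1 family protein ewg, were in no member peak (0 of 68), and in 2.89% and 1.42% of other promoter peaks. The E-box CACGTG was in 2.94% of member and 7.31% of other promoter peaks, TATAAA in 55.9% and 48.0%, and GAGAG in 42.6% and 54.9%. These shares describe letters in a window and were not tested.

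**Figure D1:**
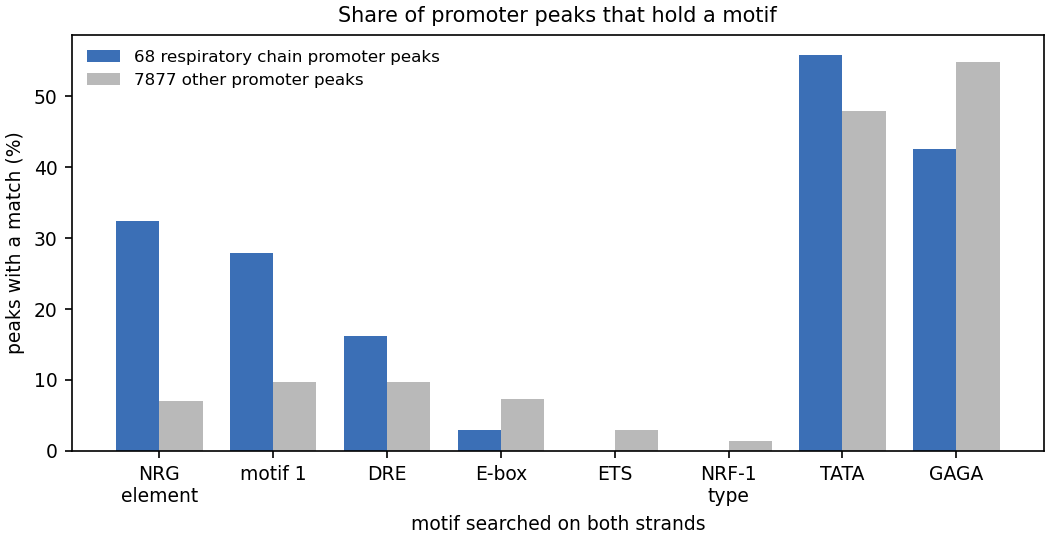
Percent of promoter peaks with at least 1 match to each motif (y axis), for the 68 respiratory chain promoter peaks and the 7877 other promoter peaks. The NRG element (32.4% against 7.1%) and motif 1 (27.9% against 9.72%) have the widest gaps in favour of the respiratory chain peaks. The ETS and NRF-1 type sequences are in no respiratory chain peak, and are also rare in other promoter peaks (2.89% and 1.42%).

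The respiratory chain genes also often shared their promoter with another gene. Of the 68 member peaks, 48 (70.6%) lay within 500 bp of the TSS of a further annotated gene, compared with 33.9% of other promoter peaks that lay near 2 or more genes, and with protein-coding genes alone the shares were 61.8% and 27.2%. All 10 peaks of complex V lay near a further annotated gene, and 8 of them lay near 2 or more protein-coding genes. The peak of ND-B16.6 was shared with kdn, the citrate synthase gene, that of ND-42 with Cchl, which encodes a cytochrome c heme lyase, that of ND-PDSW with the dosage compensation gene msl-2, that of ATPsynCF6 with Sec13, and that of ATPsynD with the mitochondrial ribosomal protein gene mRpL55 and with cdi. The height of such a peak cannot be assigned to either gene. A TSS of the member gene itself was inside the peak in 50 of 68 cases. GC content was slightly lower in the members, with a median of 40.3% compared with 42.5% in other promoter peaks.

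Depth ranged from 3290670 to 10805366 counts in peaks per library. Replicate 2 at 14 °C stood apart from replicates 1 and 3 at 14 °C, with an SD of log2 counts over peaks of 1.06 compared with 0.741 and 0.772, so that tall and low peaks differed less from each other in replicates 1 and 3. The other libraries were between 0.893 and 1.32. Of 7 hemocyte markers, 5 had a promoter peak (crq, ush, Pvr, srp and lz), with no peak at Hml and NimC1, and of 5 markers of other cell types 2 did, elav (neurons) and repo (glia). Summed over their 9 peaks, the hemocyte markers were at 779 to 1440 CPM (counts per 1e6 counts in peaks) at 14 °C, 1279 to 1629 at 25 °C and 1296 to 1704 at 29 °C. A single ush peak (chr2L:523435-523935) made up much of this sum, at 272, 760 and 366 CPM in replicates 1 to 3 at 14 °C. The elav and repo peaks together were at 138 to 242, 182 to 221 and 213 to 264 CPM. Their means at 14, 25 and 29 °C went in opposite directions, at 130, 155 and 206 CPM for elav and 44.0, 42.6 and 36.4 CPM for repo. The part of such differences between libraries in the values below was not tested.

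At 25 °C the member peaks were about as tall as other promoter peaks. Their median was 42.3 CPM, compared with 45.4 CPM for the other promoter peaks and 38.6 CPM for all peaks, and their quartiles were 31.2 and 67.8 CPM, compared with 30.4 and 72.1 CPM. The medians were 63.7 CPM for complex V, 54.9 CPM for complex II, 47.6 CPM for complex III, 41.1 CPM for complex IV and 37.9 CPM for complex I. The members ranged from 17.0 ± 1.89 CPM (SD, n = 3) for ND-24, an iron-sulfur subunit of complex I, to 257 ± 51.0 CPM for ATPsynCF6, a stalk subunit of the ATP synthase. The tallest were the peaks at ATPsynCF6, ATPsynbeta, ATPsyngamma and both peaks at COX7AL2, above the 92nd percentile of all promoter peaks. CPM values were computed with effective library sizes (TMM), and peaks of 500 bp and wider ones are both included, so heights of different genes are compared only roughly.

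Between 14 and 29 °C, without offsets for peak height, the fold changes of the respiratory chain promoters had the same median as those of other promoters. Fold changes are given as log2 of 14 °C over 29 °C, so that negative values mean lower accessibility at 14 °C. By edgeR's quasi-likelihood test, 1 of 68 member peaks passed an adjusted p under 0.05, with Benjamini-Hochberg adjustment over all 17175 peaks, and it was lower at 14 °C. Among all peaks 1.22% passed, and among other promoter peaks 72 (0.914%), of which 28 were higher and 44 lower at 14 °C. The median log2 fold change was -0.17 for the members, -0.17 for other promoter peaks and 0.02 for all peaks. Below 0 were 70.6% of the members, 65.2% of other promoter peaks and 49.2% of all peaks. The members varied less: the SD of their log2 fold changes was 0.32, compared with 0.45 for other promoter peaks and 0.55 for all peaks, and 90% of values lay between -0.63 and 0.37, compared with -0.72 and 0.79. At an unadjusted p under 0.05, 7 member peaks were lower and 0 higher at 14 °C, that is 10.3% and 0.0%, compared with 15.0% and 9.51% of other promoter peaks and 13.2% and 20.1% of all peaks.

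Without regard to a test, all 14 °C libraries lay below all 29 °C libraries in 12 member peaks (17.6%), compared with 15.1% of all peaks and 18.1% of other promoter peaks. They lay above in 4 member peaks (5.88%), compared with 12.8% of all peaks and 8.26% of other promoter peaks. The count of calls depended on replicate 2 at 14 °C. Without this library, 1 member peak was called higher and 15 lower, 23.5% of the members, compared with 41.2% of other promoter peaks and 49.7% of all peaks. With DESeq2, 3 member peaks were called, all lower, and 12.6% of all peaks were. With the replicate number as a block in a fit of only the 14 and 29 °C libraries, 5 members were higher and 13 lower, and 58.6% of all peaks were called.

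**Figure D2:**
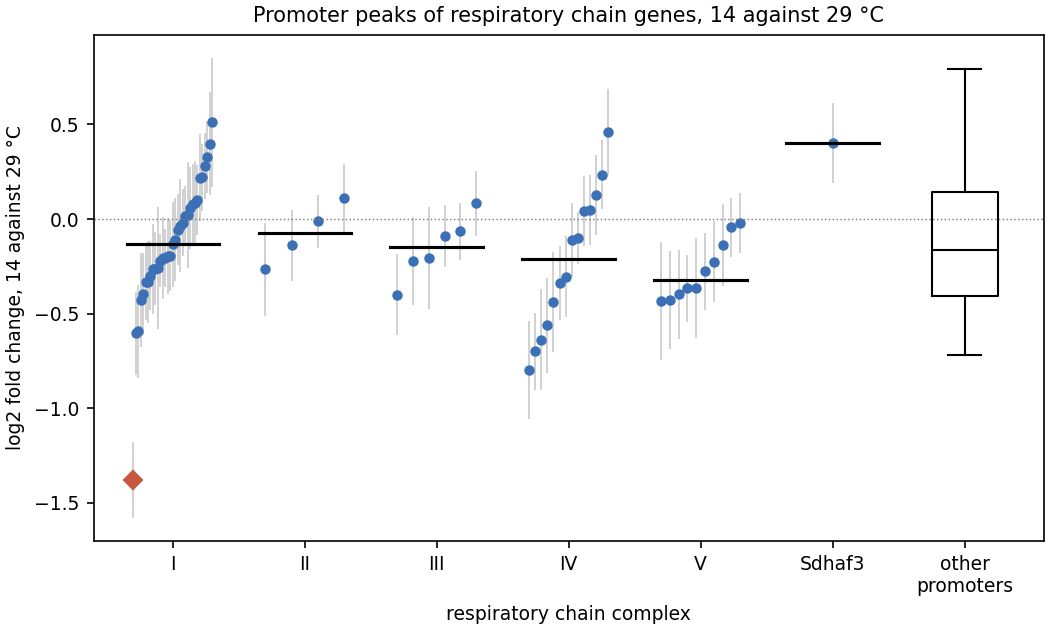
Log2 fold change of peak height at 14 against 29 °C (y axis) for each member peak by complex, with bars of ± 1 SE from edgeR and a black line at the median, and at right the median, quartiles and 5th and 95th percentiles of the 7877 other promoter peaks. The single peak past the threshold (red diamond, ND-ASHI peak 2, at -1.38) lies far below the other respiratory chain peaks, which range from -0.80 to 0.51.

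The peak that passed was the upstream one of a pair at ND-ASHI, an accessory subunit gene of complex I (chrX:6679314-6679814). It is 196 bp from the start of the longest ND-ASHI transcript, at 6679118, but contains the start of the transcript Fum1-RB at 6679640 of the opposite strand. Fum1 encodes fumarase, which in the TCA cycle acts on the product of complex II. The peak was at 28.0, 31.8 and 26.5 CPM in replicates 1 to 3 at 14 °C, at 70.5, 61.5 and 79.5 CPM at 25 °C and at 69.5, 94.8 and 59.5 CPM at 29 °C. All 14 °C libraries were thus below all libraries of the warmer temperatures, with no library of 14 °C above 32 CPM. By edgeR, the log2 difference between 14 and 29 °C was -1.38 (SE 0.20) at an adjusted p of 0.0226, and that between 14 and 25 °C was -1.29 (SE 0.20) at an adjusted p of 0.201. Between 29 and 25 °C it was 0.09.

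The 100 bases in front of the Fum1-RB start, which lie inside this peak and in no annotated exon, are shown because they belong to the only respiratory chain promoter peak that passed the threshold. Capitals mark the GAGAG match, and the peak held no DRE, NRG element or motif 1.
Fum1-RB upstream (chrX:6679540-6679639, plus strand): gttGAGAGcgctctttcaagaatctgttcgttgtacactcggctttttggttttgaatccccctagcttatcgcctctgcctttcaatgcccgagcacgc

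The other peak of this locus (chrX:6677985-6678485), which contains the starts of the shorter ND-ASHI transcripts and of Fum1-RA and holds a DRE, was at 24.5, 18.4 and 19.4 CPM at 14 °C, at 17.0, 17.3 and 19.0 CPM at 25 °C and at 19.3, 20.0 and 18.3 CPM at 29 °C. The temperatures overlapped, and the log2 fold change between 14 and 29 °C was 0.10 (SE 0.19) at an adjusted p of 0.691 by edgeR. The log2 ratio of this peak to the upstream peak was -0.48 ± 0.30 (SD, n = 3) at 14 °C, -1.98 ± 0.13 at 25 °C and -1.93 ± 0.28 at 29 °C. The call of the upstream peak was lost without replicate 1 at 14 °C (edgeR adjusted p = 0.0593), replicate 3 at 14 °C (0.107), replicate 1 at 29 °C (0.066) or replicate 2 at 29 °C (0.082) and in a fit of only the 6 libraries compared (0.0799), while its log2 fold change stayed between -1.51 and -1.16 in all 21 alternative fits.

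COX7C, a small subunit of complex IV, also had a pair of peaks with different values. Its upstream peak (chr2R:10048001-10048501) contains the COX7C start at 10048353 and is shared with the gene oys. It was at 57.4, 81.9 and 64.7 CPM at 14 °C, at 84.2, 97.5 and 110 CPM at 25 °C and at 98.7, 112 and 122 CPM at 29 °C. All 14 °C libraries lay below all 29 °C libraries, with a log2 fold change of -0.70 (SE 0.20) at an adjusted p of 0.0998 by edgeR, past an unadjusted p of 0.05 but not the threshold. It passed with DESeq2 (adjusted p = 0.0135) and in 3 other alternative fits by edgeR, the lowest adjusted p being 0.000114 with the block on only 6 libraries. The downstream peak, over the COX7C start at 10049481 (chr2R:10049233-10049733), was at 45.5, 39.5 and 41.5 CPM at 14 °C and at 37.8, 32.8 and 36.8 CPM at 29 °C. Here all 14 °C libraries were above all 29 °C libraries, with a log2 fold change of 0.24 (SE 0.18) at an adjusted p of 0.343 by edgeR.

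**Figure D3:**
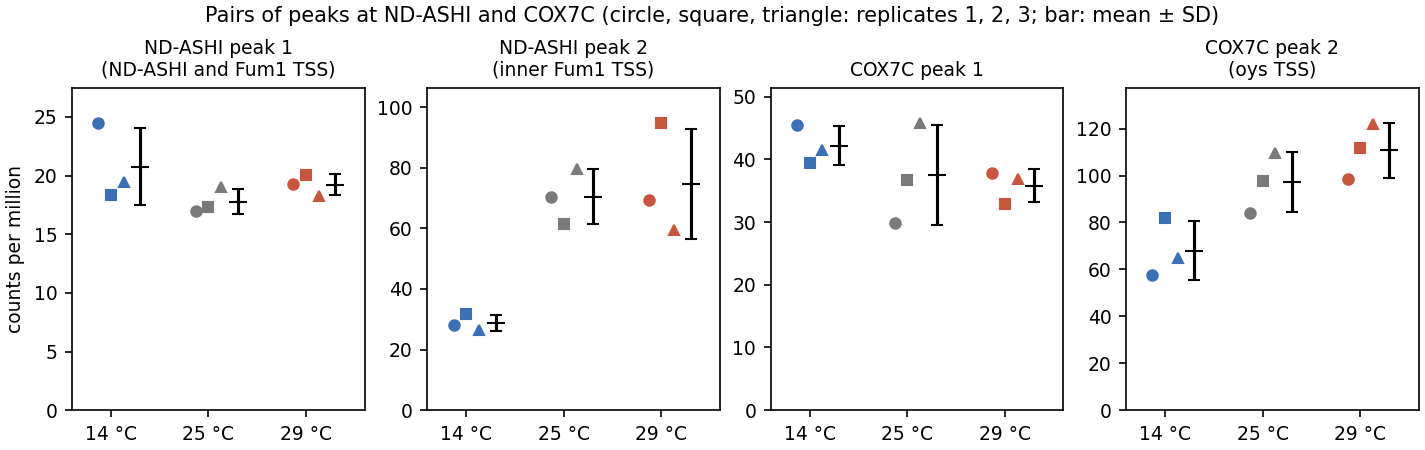
Height in CPM (y axis) of the pairs of peaks at ND-ASHI and COX7C in each library at 14, 25 and 29 °C, with symbols for the replicates and bars for mean ± SD. The peak with the inner Fum1 start is at 26.5 to 31.8 CPM at 14 °C and at 59.5 CPM or more at 25 and 29 °C, while ND-ASHI peak 1 stays between 17.0 and 24.5 CPM.

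For complex I, the NADH dehydrogenase, 21 of 33 peaks (63.6%) were below 0 between 14 and 29 °C, with a median of -0.13. This share was near the 65.2% of other promoter peaks. In parentheses, the log2 fold change between 14 and 29 °C is given with its SE, and peaks for which no p is stated did not pass the threshold. ND-51, which encodes the NADH-binding flavoprotein subunit, was at 26.7, 41.8 and 37.4 CPM at 14 °C and at 41.4, 42.4 and 38.1 CPM at 29 °C, and the log2 fold change was -0.20 (SE 0.19) at an adjusted p of 0.443 by edgeR. ND-42, an accessory subunit, was at 46.3, 46.5 and 40.4 CPM at 14 °C and at 54.8, 60.2 and 43.7 CPM at 29 °C (-0.26, SE 0.19). In both, the temperatures overlapped. ND-23, an iron-sulfur subunit next to the quinone site, was at 38.1, 24.5 and 33.8 CPM at 14 °C and at 30.1, 23.7 and 28.9 CPM at 29 °C (0.22, SE 0.23), and its peak lies on the side of the neighbouring gene spn-E, 312 bp from the ND-23 TSS.

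ND-49, a core subunit of the quinone-binding region, had a pair of peaks on chromosome 4. Peak 1, over its TSS, was at 40.1, 34.1 and 40.2 CPM at 14 °C and at 44.1, 47.6 and 39.6 CPM at 29 °C (-0.21, SE 0.15). Peak 2, shared with the axon guidance gene Ephrin, was at 26.0, 32.3 and 30.5 CPM at 14 °C and at 43.8, 46.6 and 45.0 CPM at 29 °C. For peak 2 the libraries did not overlap, and the log2 fold change was -0.60 (SE 0.22) at an adjusted p of 0.121 by edgeR. This peak passed the threshold in 3 of 21 alternative fits by edgeR, with the replicate block and offsets for peak height together (adjusted p = 0.0473), without replicate 2 at 14 °C (0.0424) and with the block on only 6 libraries (0.000144).

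The highest fold change in complex I was that of ND-B14.7, an accessory membrane subunit, at 0.51 (SE 0.34) at an adjusted p of 0.278 by edgeR. It was at 35.1, 18.8 and 40.5 CPM at 14 °C and at 23.2, 18.3 and 24.9 CPM at 29 °C, so replicate 2 at 14 °C was as low as the 29 °C libraries. The tallest complex I peak was peak 2 of ND-15, shared with CG3436 and Pus10, at 83.7, 121 and 95.0 CPM at 14 °C and at 120, 159 and 115 CPM at 29 °C (-0.40, SE 0.22). The lowest was that of ND-24, at 16.1, 21.3 and 13.7 CPM at 14 °C and at 13.5, 16.8 and 23.0 CPM at 29 °C (-0.03, SE 0.25).

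In complex II, the subunit peaks had log2 fold changes between -0.27 and 0.11. The flavoprotein gene SdhA was at 57.7, 75.1 and 58.1 CPM at 14 °C and at 66.0, 84.5 and 59.2 CPM at 29 °C (-0.14, SE 0.19). The iron-sulfur gene SdhB was at 45.8, 41.1 and 43.4 CPM at 14 °C and at 43.6, 45.6 and 41.9 CPM at 29 °C (-0.01, SE 0.14). Of the membrane anchors, SdhC, with a peak shared with Tctp, was at 67.8, 107 and 67.9 CPM at 14 °C and at 88.4, 114 and 90.3 CPM at 29 °C (-0.27, SE 0.24), and SdhD was at 34.2, 32.2 and 36.6 CPM at 14 °C and at 34.9, 30.4 and 29.9 CPM at 29 °C (0.11, SE 0.18). In all of these the temperatures overlapped. The assembly factor gene Sdhaf3 was higher in every 14 °C library, at 41.6, 28.3 and 31.4 CPM compared with 22.0, 27.1 and 27.4 CPM at 29 °C, with a log2 fold change of 0.40 (SE 0.21) that did not pass the threshold (edgeR adjusted p = 0.187).

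In complex III, 5 of 6 peaks were below 0, compared with 65.2% of other promoter peaks. The median was -0.15, and no peak had groups without overlap. The core protein gene UQCR-C1 was at 33.2, 32.0 and 40.7 CPM at 14 °C and at 32.1, 33.9 and 34.0 CPM at 29 °C (0.08, SE 0.17). UQCR-C2, the other core protein, was at 43.6, 38.5 and 36.2 CPM at 14 °C and at 39.1, 44.8 and 39.3 CPM at 29 °C (-0.07, SE 0.15). UQCR-14 was at 19.1, 31.9 and 20.8 CPM at 14 °C and at 29.1, 28.6 and 26.4 CPM at 29 °C (-0.22, SE 0.23), with replicate 2 at 14 °C above and replicates 1 and 3 below all 29 °C libraries. UQCR-11, the tallest of this complex at 25 °C, was at 66.3, 109 and 62.9 CPM at 14 °C and at 87.2, 104 and 83.4 CPM at 29 °C (-0.21, SE 0.27). The lowest fold change was that of UQCR-6.4, with a peak shared with Rab4 and CG42239, at 52.2, 67.0 and 47.4 CPM at 14 °C and at 66.3, 87.3 and 66.1 CPM at 29 °C (-0.40, SE 0.22, adjusted p of 0.195 by edgeR).

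Complex IV, cytochrome c oxidase, had a median log2 fold change of -0.21, with 5 of 14 peaks above 0 and 9 below (64.3%, compared with 65.2% of other promoter peaks). All 14 °C libraries lay above all 29 °C libraries in 2 of these peaks (14.3%, compared with 12.8% of all peaks) and below them in 3 (21.4%, compared with 15.1%). At an unadjusted p under 0.05 by edgeR, 4 of the 14 were lower at 14 °C (28.6%), both COX7AL2 peaks among them, and 0 were higher. These shares were 15.0% and 9.51% for other promoter peaks and 13.2% and 20.1% for all peaks. The SD of the log2 fold changes of complex IV was 0.38, and 0.196 with offsets that remove each library's trend against peak height. COX4 was at 20.8, 21.4 and 22.1 CPM at 14 °C and at 25.2, 22.7 and 32.1 CPM at 29 °C, without overlap (-0.30, SE 0.21, adjusted p of 0.297 by edgeR). COX5A was at 30.7, 50.7 and 41.2 CPM at 14 °C and at 51.5, 59.8 and 44.4 CPM at 29 °C (-0.34, SE 0.20). COX5B was at 35.1, 39.3 and 34.9 CPM at 14 °C and at 35.2, 37.8 and 45.9 CPM at 29 °C (-0.11, SE 0.20). These encode nuclear subunits around the catalytic core that mitochondrial DNA encodes, and only at COX4 were the temperatures apart.

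COX7A was at 34.2, 21.9 and 29.2 CPM at 14 °C and at 25.2, 26.7 and 25.8 CPM at 29 °C (0.13, SE 0.21). COX8 had a peak within its gene, at 33.4, 29.1 and 28.8 CPM at 14 °C and at 30.7, 27.9 and 29.9 CPM at 29 °C (0.04, SE 0.19). Its second peak, shared with VhaM9.7-b, a gene for a proton pump subunit, was at 51.2, 91.6 and 62.7 CPM at 14 °C and at 85.2, 119 and 74.6 CPM at 29 °C (-0.44, SE 0.26). None of the 3 peaks was free of overlap.

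The lowest fold change of complex IV was that of the duplicate COX7AL2. Its peak 1 (chr2L:2197434-2197934) was at 73.5, 107 and 84.2 CPM at 14 °C, at 94.1, 139 and 171 CPM at 25 °C and at 140, 172 and 149 CPM at 29 °C. Every 14 °C library was below every 29 °C library, and the log2 fold change was -0.80 (SE 0.26) at an adjusted p of 0.114 by edgeR, which passed the threshold with DESeq2 (adjusted p = 0.0277) and, by edgeR, without replicate 2 at 14 °C (0.0149) and with the block on only 6 libraries (0.000168). Peak 2 of this gene was also lower (-0.64, SE 0.27, adjusted p of 0.135 by edgeR), and its 14 and 29 °C libraries overlapped.

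In complex V, the ATP synthase, all 10 peaks were below 0 between 14 and 29 °C, compared with 65.2% of other promoter peaks. Their median was -0.32 with a range of -0.43 to -0.02, and none passed the threshold or an unadjusted p of 0.05. All 14 °C libraries lay below all 29 °C libraries in 4 of the 10 peaks (40.0%), compared with 15.1% of all peaks and 18.1% of other promoter peaks, and complex V held the tallest peaks by median. ATPsynbeta, the catalytic subunit, was at 102, 199 and 122 CPM at 14 °C, at 157, 186 and 240 CPM at 25 °C and at 172, 247 and 153 CPM at 29 °C (-0.43, SE 0.31, adjusted p of 0.308 by edgeR). Replicate 2 at 14 °C was above replicates 1 and 3 at 29 °C. ATPsyngamma, the rotor shaft, was at 161, 166 and 149 CPM at 14 °C and at 211, 198 and 231 CPM at 29 °C, without overlap (-0.43, SE 0.26, adjusted p of 0.239 by edgeR). ATPsynCF6 was at 172, 222 and 182 CPM at 14 °C and at 249, 248 and 264 CPM at 29 °C, again without overlap (-0.40, SE 0.24, adjusted p of 0.228 by edgeR). Its peak, shared with Sec13, does not contain the ATPsynCF6 TSS and lies 254 bp from it.

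ATPsynC, the membrane ring subunit, had a tall peak at its TSS, at 66.1, 130 and 91.9 CPM at 14 °C and at 109, 147 and 115 CPM at 29 °C (-0.37, SE 0.26). Its second peak was at 45.8, 40.2 and 39.4 CPM at 14 °C and at 43.1, 48.6 and 36.5 CPM at 29 °C (-0.04, SE 0.16). ATPsynD, a stalk subunit, was at 61.4, 59.0 and 55.9 CPM at 14 °C and at 51.7, 68.1 and 58.8 CPM at 29 °C (-0.02, SE 0.16). The lowest complex V peak at 25 °C, ATPsynE peak 2, was at 25.7, 25.9 and 21.9 CPM at 14 °C and at 31.0, 23.8 and 31.5 CPM at 29 °C (-0.23, SE 0.21).

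**Figure D4:**
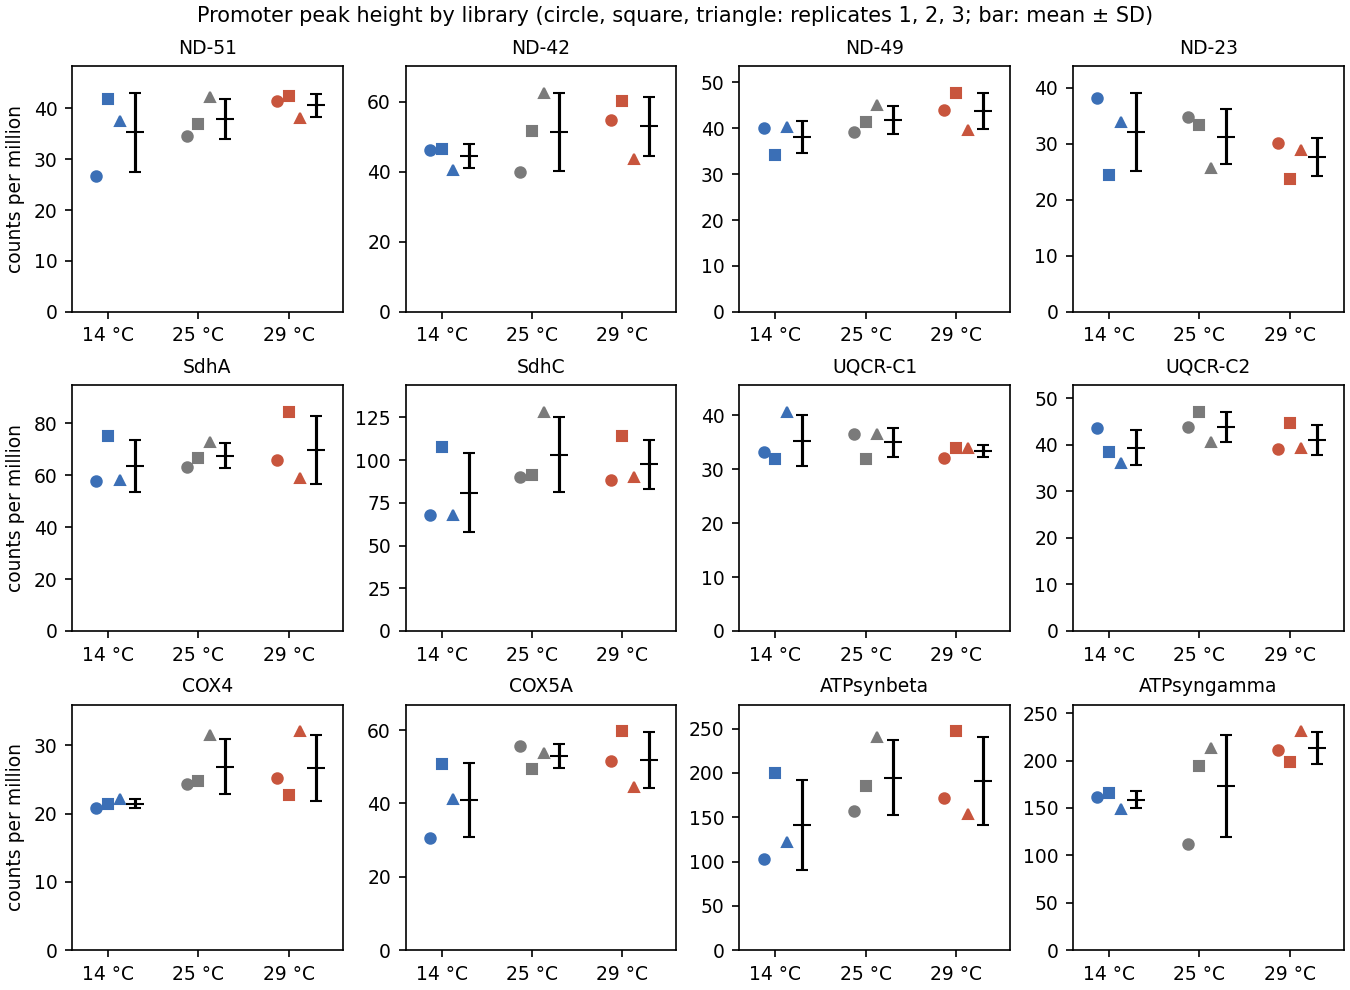
Height in CPM (y axis, from 0) of the promoter peaks of 12 named subunit genes in each library at 14, 25 and 29 °C, with symbols for the replicates and bars for mean ± SD. In most genes the temperatures overlap, and at ATPsynbeta replicate 2 at 14 °C (199 CPM) lies above replicates 1 and 3 at 29 °C (172 and 153 CPM).

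Fold changes went with peak height, so the order of the complexes has to be read beside it. Member peaks above the members' median height at 25 °C had a median log2 fold change of -0.32 (31 of 34 below 0), and those below it a median of 0.001 (17 of 34 below 0). With offsets that remove the trend of each library against peak height, these medians were -0.07 and -0.30, and the median of complex V changed from -0.32 to -0.03 with 5 of 10 peaks below 0. The direction for complex V therefore depended on this setting, and the median for all members did not change sign (-0.23). With the same offsets the median of other promoter peaks was -0.15, so the equality of the 2 medians without offsets also depended on this setting. Of the other promoter peaks, 65.2% were below 0 without the offsets and 67.9% with them. Peaks shared with another gene had a median of -0.22 (38 of 48 below 0), and peaks not shared one of 0.02 (10 of 20 below 0), and their median heights at 25 °C were 46.1 and 38.3 CPM. With the height offsets, these medians were -0.24 (35 of 48 below 0) and -0.18 (13 of 20 below 0), so that the gap was smaller and the median of the peaks not shared changed sign. Peaks with and without an NRG element had medians of -0.11 and -0.20, and of -0.20 and -0.24 with the height offsets.

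Library by library, the members followed the other promoters. As deviations from each peak's own mean on the log2 CPM scale, the median of the members was -0.11, -0.03 and -0.16 in replicates 1 to 3 at 14 °C, -0.08, 0.04 and 0.16 at 25 °C and 0.01, 0.14 and -0.0023 at 29 °C. The median of the members minus that of other promoter peaks was -0.01 ± 0.07 (SD, n = 3) at 14 °C, 0.01 ± 0.03 at 25 °C and -0.03 ± 0.0016 at 29 °C. The differences between the temperatures were smaller than the spread between replicates at 14 °C.

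**Figure D5:**
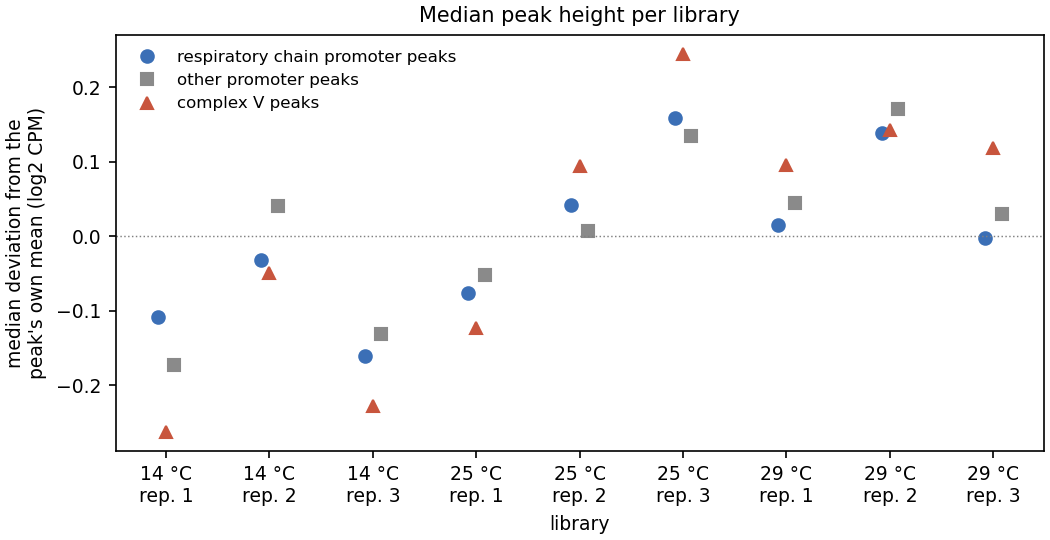
Median deviation of peak height from each peak's own mean over libraries (y axis, log2 CPM) in each of the 9 libraries, for the 68 respiratory chain promoter peaks, the 7877 other promoter peaks and the 10 complex V peaks. The respiratory chain median minus that of the other promoters is between -0.07 and 0.07 in the 9 libraries, and complex V is lowest in replicates 1 and 3 at 14 °C.

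Compared with 25 °C, no member peak passed the threshold. Between 14 and 25 °C, 0 of 68 passed by edgeR, 0.00582% of all peaks did, 3 members (4.41%) and 3.24% of all peaks were lower at an unadjusted p under 0.05, and DESeq2 called 1 member (1.47%) and 0.425% of all peaks. The median was -0.13, compared with -0.09 for other promoter peaks. The 3 peaks past the unadjusted p were ND-ASHI peak 2, COX7C peak 2 (-0.51, SE 0.20) and COX7AL2 peak 1 (-0.61, SE 0.26), which are the ones described between 14 and 29 °C, and these comparisons share the 14 °C libraries. Between 29 and 25 °C, 0 of 68 passed by edgeR, as did 0.0% of all peaks, 0 members and 4.58% of all peaks were past an unadjusted p of 0.05, and DESeq2 called 0 members and 0.14% of all peaks. The median was 0.01, compared with 0.05 for other promoter peaks, and all members lay between -0.32 and 0.30.

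Other genes of the pathway were counted over whole lists. Of 9 subunit genes named outside the symbol rule, such as blw (the alpha subunit of the ATP synthase), RFeSP (the iron-sulfur protein of complex III) and the cytochrome c genes, all 9 had promoter peaks, and 0 of their 10 peaks were called between 14 and 29 °C (median -0.17). The tallest, blw, named after its values were seen, was at 99.8, 146 and 99.3 CPM at 14 °C and at 142, 198 and 153 CPM at 29 °C (-0.51, SE 0.24, adjusted p of 0.155 by edgeR), with replicate 2 at 14 °C in the range of 29 °C. Of 8 listed assembly factor genes in the annotation, 4 had a peak, and 0 of 5 peaks were called (median 0.21). Of 10 TCA cycle genes all 10 had a peak, 3 of their 13 peaks being members, and the inner Fum1 peak was the only one called (median -0.14). Of 9 genes for regulators of mitochondrial genes, among them Ets97D, ewg, srl (the fly PGC-1), TFAM and Dref, all 9 had a peak. Of their 12 peaks 0 were called (median -0.20), and 10 of 12 were below 0, compared with 65.2% of other promoter peaks. At an adjusted p of 0.05 by edgeR, these lists had 1 call, at a peak already counted as a member. Among all peaks 1.22% were called, and among other promoter peaks 0.914%. With lists this short, the count of calls cannot tell them apart from other promoters.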

How the data were processed

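ATAC-Seq libraries of S2R+ cells were analysed, 3 each at 14, 25 and 29 °C. The authors trimmed reads (Trimmomatic 0.38), mapped them with Bowtie2 to dm6, discarded duplicates and reads that were not unique or were mitochondrial, shifted reads for Tn5, called peaks per library with MACS2 and counted reads in consensus peaks with DiffBind. The deposited raw counts per peak were tested. The deposited normalized signal, raw counts minus 1 over a factor per library, only gave the authors' scaling.

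Counts were fitted with edgeR 4.0.16 in R 4.3.3 (TMM, robust quasi-likelihood, all 9 libraries, 6 residual degrees of freedom), with Benjamini-Hochberg adjustment over 17175 peaks. An SE is the log2 fold change over the square root of F. Depth was 3290670 to 10805366 counts in peaks, and the biological coefficient of variation was 22.7%. TSSs came from Ensembl release 115 without transposable elements, and sequences from the RefSeq copy of Release 6. No peak ended beyond its chromosome. Positions were read as 1-based, which the sources used here do not state.

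Members and lists were chosen with earlier results of these data known. Named were core or central subunits, the peaks with the highest and lowest fold change and height per complex, and peaks past the threshold. COX7C peaks, ND-ASHI peak 1, Sdhaf3 and blw were added after their values were seen. COX7AL2 peak 2 was also added and is not counted among the named peaks below. The complex IV peak with the highest fold change is not reported here by name. For 14 and 29 °C, deviations of equally numbered libraries correlated at 0.634, 0.826 and 0.538, which passed the rule used for pairing (over 0.1). Replicates 1 and 3 correlated across numbers (0.559 and 0.551) more than the libraries numbered 3 did with each other. The rule therefore cannot show that equal numbers mark paired cultures, which also limits the block on only 6 libraries. With 25 °C, libraries numbered 2 and 3 correlated negatively (-0.453 and -0.737 for 14 °C, -0.488 and -0.601 for 29 °C), so the block on 9 libraries holds 25 °C libraries that do not pair. Alternatives were other scalings, offsets for height (loess span 0.3) and GC, a replicate block, DESeq2 1.42.0, 6 libraries only, a filter on low counts (mean of at least 182), a stricter threshold, other member definitions and each library left out. The fitting step was also run on simulated counts with the real library sizes. These had less spread between replicates than the data and no deviating library, so they cannot show how reliable the calls are here.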

Additional observations from a re-analysis of the deposited data

How the results depend on the processing

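The 14 against 29 °C fit called 0 member peaks higher and 1 lower. The replicate block on 9 libraries, of which those at 25 °C do not pair, gave the same counts (0 and 1), called 2.79% of all peaks compared with 1.22% and changed no other call among named peaks. The lower count was 3 (4.41% of members) with the replicate block and height offsets, 3 with DESeq2 and 3 without replicate 2 of every temperature (added after seeing the data), which called 7.57%, 12.6% and 13.6% of all peaks. It was 0 with only 6 libraries, at an adjusted p under 0.01, when the peak had to contain the TSS, or when peaks shared with another gene were left out, which also gave a median of 0.016. With the replicate block on only 6 libraries (also added), 5 were higher and 13 lower, with 58.6% of all peaks called. Leaving out each library gave 0 to 1 higher and 0 to 15 lower, the highest without replicate 2 at 14 °C, where 49.7% of all peaks were called. With any other single library left out, 0.0% to 1.25% were. Between 14 and 25 °C, 1 was called lower with height offsets, the block with height offsets, DESeq2, and without replicate 2 of every temperature, which called 0.419%, 0.454%, 0.425% and 1.14% of all peaks. Total count scaling moved the median of all peaks from 0.02 to 0.16 and that of the members to -0.02.

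Of 37 named peaks not called between 14 and 29 °C, 13 passed the threshold in at least 1 alternative, 10 of them only without replicate 2 at 14 °C or with the block on only 6 libraries. No named peak whose log2 fold change changed sign was called in either fit. With GC offsets they were COX8 peak 1 -0.018, ND-23 -0.041, ND-24 0.057, ND-B14.7 -0.058, UQCR-C1 -0.034 and UQCR-C2 0.018. With height offsets they were ATPsynC peak 1 0.040, ATPsynCF6 0.212, ATPsynD 0.161, ATPsynbeta 0.072, ATPsyngamma 0.15, COX7A -0.337, COX8 peak 1 -0.285, ND-15 peak 2 0.054, ND-23 -0.136, ND-ASHI peak 1 -0.278, SdhA 0.073, SdhC 0.093, SdhD -0.149, UQCR-11 0.132 and UQCR-C1 -0.137. With the replicate block and height offsets they were ATPsynC peak 1 0.034, ATPsynCF6 0.208, ATPsynD 0.157, ATPsynbeta 0.075, ATPsyngamma 0.145, COX7A -0.330, COX8 peak 1 -0.285, ND-15 peak 2 0.058, ND-23 -0.135, ND-ASHI peak 1 -0.272, SdhA 0.079, SdhC 0.093, SdhD -0.157, UQCR-11 0.129 and UQCR-C1 -0.146. With the low count filter they were ATPsynC peak 2 0.096, ATPsynD 0.115, COX5B 0.012, SdhB 0.125 and UQCR-C2 0.072. With total count scaling they were ATPsynC peak 2 0.112, ATPsynD 0.132, COX5B 0.029, ND-24 0.096, SdhA 0.006, SdhB 0.141 and UQCR-C2 0.089. Without replicate 2 of every temperature they were ATPsynC peak 2 0.087, ATPsynD 0.087, SdhB 0.060 and UQCR-C2 0.020. With each library left out in turn, the peaks that changed sign ranged as follows: ATPsynC peak 2 -0.142 to 0.061, ATPsynD -0.111 to 0.091, COX7A -0.022 to 0.286, COX8 peak 1 -0.025 to 0.082, ND-24 -0.238 to 0.170, ND-ASHI peak 1 -0.027 to 0.182, SdhA -0.280 to 0.025, SdhB -0.051 to 0.027, UQCR-C1 -0.034 to 0.153 and UQCR-C2 -0.140 to 0.004. The cause was not tested. A change that did not pass the threshold is not shown to be absent.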
